A study of Homo sapiens with 18 samples.

Results

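The 10 genes described here drive or mark cell division: the cyclins CCNA2, CCNB1 and CCNB2, the kinases CDK1, PLK1, AURKA and AURKB, the mitotic exit factor CDC20, and the proliferation markers MKI67 and TOP2A. They were taken from the deposited array values by symbol, with the probe set of the highest mean level where a gene had several, and each of the 10 turned out to have 1 probe set. All 10 were measured, among 18417 genes in all. The cells were human umbilical vein endothelial cells (HUVEC), labelled a normal endothelial line, which grow as a dividing monolayer in culture. RNA of 18 samples was hybridised to Affymetrix whole-transcript arrays, 3 arrays in each of 6 groups.

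All groups were HUVEC, and the labels set them apart by what was added to them. The first control was untreated cells, for which no culture time is stated. A difference in culture time between them and the other groups can therefore not be told apart from the treatment. The second control received beads coated with immunoglobulin G (IgG) alone. The other 4 groups received extracellular vesicles (EVs), small membrane-bound packages shed by cells, from Jurkat cells, a T cell leukaemia line, or from JinB8 cells, a Jurkat derivative without the receptor CD47. The EVs had been captured on antibodies to CD63, a tetraspanin of endosomal vesicles, or to MHC class 1 (MHC1), the peptide-presenting complex of the cell surface. Beads and EVs stayed on the cells for 3 days. JinB8 is 1 mutant line, so that the absence of CD47 and other differences between the lines cannot be told apart, and the conditioned media of the donor flasks were pooled before the EVs were purified. The text labels of 5 of the 6 JinB8 samples carry another number after the JinB stem, and they were grouped by the bracketed name, which reads JinB8 in all 6. Whether the 3 arrays of a group stem from separate cultures is not stated, and the p-values therefore weigh differences against a spread between samples that may be technical.

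Entry into mitosis is driven by CDK1 bound to a cyclin. Cyclin A2 (CCNA2) acts in S phase and G2, and cyclins B1 and B2 (CCNB1, CCNB2) carry CDK1 through the G2 to M transition. The polo-like kinase PLK1 and Aurora A (AURKA) act at centrosomes and spindle poles, Aurora B (AURKB) acts at centromeres and the midzone, and CDC20 activates the anaphase-promoting complex (APC/C), the ubiquitin ligase that ends mitosis by destroying the cyclins. Ki-67 (MKI67) coats mitotic chromosomes and topoisomerase II alpha (TOP2A) untangles DNA, and both are used as markers of cycling cells. Transcription of these genes is held down in resting cells by the DREAM complex and switched on in G2 by B-MYB and FOXM1, largely through promoter elements called CHR and CCAAT boxes. In the RefSeq annotation (GRCh38.p14), MKI67 lies at chr10:128096659-128126423 and CDK1 at chr10:60778331-60794852, TOP2A at chr17:40388525-40417896 and AURKB at chr17:8204731-8210575, PLK1 at chr16:23678889-23690367 and AURKA at chr20:56369390-56392215. The cyclins lie at chr4:121816444-121823883 (CCNA2), chr5:69167150-69178245 (CCNB1) and chr15:59105146-59125045 (CCNB2), and CDC20 at chr1:43358981-43363203. In a bulk sample, a smaller share of dividing cells and less of the RNA per dividing cell cannot be told apart.

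Replicate 3 of the untreated cells and replicate 3 of the IgG beads stood apart from the other arrays, and the comparisons below are therefore given for all 18 arrays and for the 16 arrays without them; correlations are given over the 16. Their median Pearson's r with the other arrays was 0.647 and 0.635, where each of the 16 had a median r of 0.948 to 0.992. The SD over probe sets was 1.56 and 1.57 on them and 2.01 to 2.25 on the 16. The mean of 14 endothelial markers was 7.18 and 6.31 on these arrays and 9.44 to 9.68 on the 16, and the mean of 11 T cell markers was 4.87 on both and 3.74 to 4.23 on the 16. Within the 16, the values nearest to these 2 arrays were all from Jurkat MHC1 replicate 1: r 0.948, SD 2.01, endothelial mean 9.44 and T cell mean 4.23. The next lowest median r was 0.976, in JinB8 CD63 replicate 3. The mean log2 level of the 10 mitotic genes was 5.47 on untreated replicate 3 and 5.66 on bead replicate 3, below all of the 16 arrays (5.73 to 6.92). What set these arrays apart was not tested.

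The mitotic genes had lower levels in EV-treated than in control cells on the 16 arrays, and none of the 10 passed the threshold on all 18. With 16 arrays (12 EV, 4 control), all 10 genes were lower with EVs, by 0.38 to 0.85 on the log2 scale, and 2 of them fell past the threshold of an adjusted p under 0.05: MKI67 and PLK1. Of all genes tested, 0.125% were called in either direction and 0.0814% were called lower. The median difference of the 10 genes was -0.49, and that of all genes was 0.00. All 10 had an unadjusted p under 0.05 in this fit, as did 4.53% of all genes. With all 18 arrays (12 EV, 6 control), 0 of the 10 were called by limma, against 0.00543% of all genes, and only AURKB had an unadjusted p under 0.05 (10.3% of all genes). The median difference there was -0.19, against -0.09 over all genes, and 8 of the 10 were lower with EVs.

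**Figure D1:**
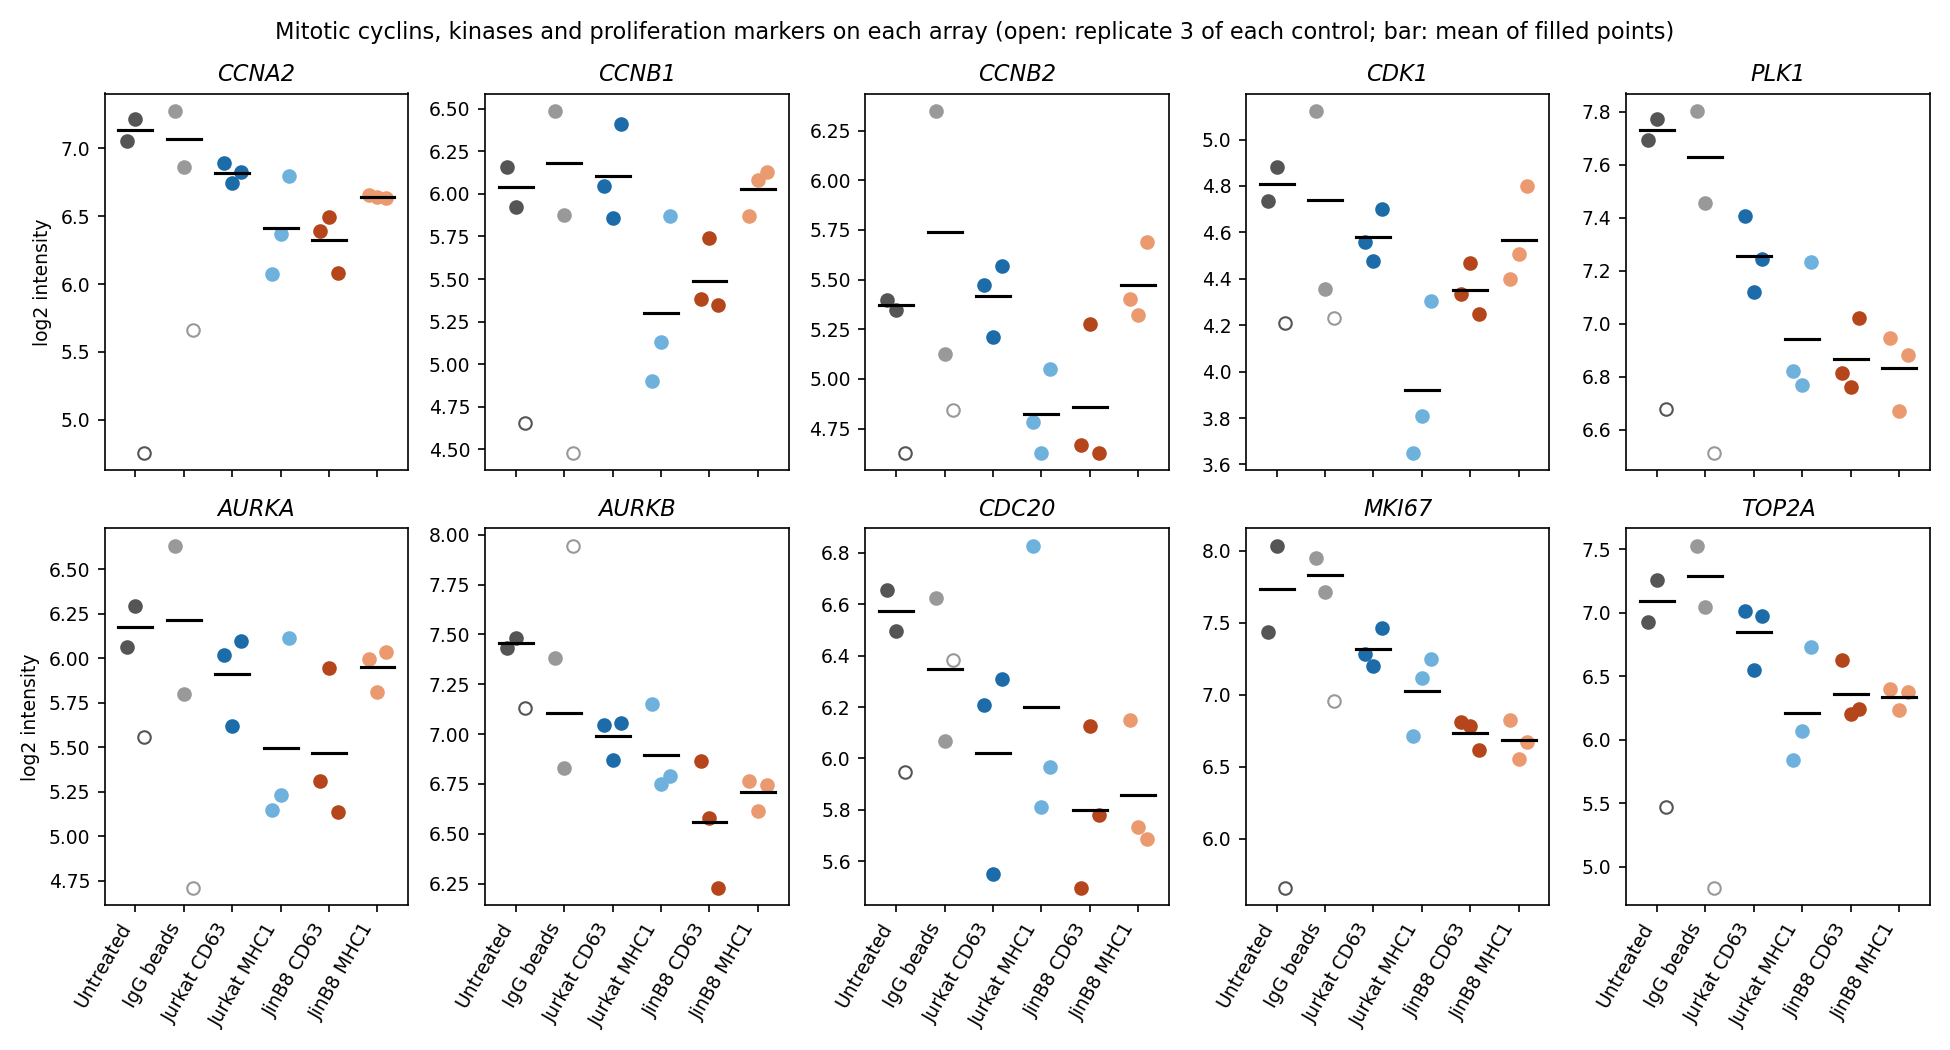
Log2 intensity of each of the 10 genes (1 panel a gene, each with its own vertical scale that does not start at 0) on each array, by group. Each point is an array, open points are replicate 3 of the untreated and bead groups, and bars are the means of the filled points. The filled control points of PLK1 (7.46 to 7.80) lie above all EV points (6.67 to 7.40), and in the panels of CCNA2, CCNB1 and TOP2A both open points lie below all filled points.

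MKI67, the Ki-67 gene, had the largest difference of the 10 on the 16 arrays. Its log2 levels were 7.44, 8.04 and 5.66 in the 3 untreated arrays and 7.95, 7.72 and 6.96 in the 3 bead arrays. With Jurkat EVs it stood at 7.29, 7.20 and 7.47 after CD63 capture and at 6.72, 7.12 and 7.25 after MHC1 capture. With JinB8 EVs it stood at 6.81, 6.78 and 6.61 after CD63 capture and at 6.83, 6.55 and 6.67 after MHC1 capture. Replicate 3 was the lowest array of each control group, and without these the 2 ranges met only where Jurkat CD63 replicate 3 (7.47) passed untreated replicate 1 (7.44). On 16 arrays MKI67 fell by 0.85 ± 0.12 (SE), a 1.80-fold difference with a 95% interval of -1.10 to -0.59 and an adjusted p of 0.00599. On 18 arrays its difference was -0.35 ± 0.27, with an adjusted p of 0.317. The call among the 16 was lost without untreated replicate 2 (-0.70, adjusted p = 0.0844) and without bead replicate 1 (-0.79, adjusted p = 0.123).

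TOP2A, the other proliferation marker, was lower by 0.75 ± 0.15 on the 16 arrays (adjusted p = 0.0833). Its levels were 6.93 and 7.26 in the untreated arrays and 7.53 and 7.05 in the bead arrays of the 16, against 5.48 and 4.83 on the 2 arrays that stood apart. The EV arrays ran from 5.84 (Jurkat MHC1 replicate 1) to 7.02 (Jurkat CD63 replicate 1), so that the groups overlapped. On 18 arrays its difference was -0.07 ± 0.35 (adjusted p = 0.862). It passed the threshold on the 16 arrays when Jurkat MHC1 replicate 1 (-0.71, adjusted p = 0.0335) or replicate 3 (-0.82, adjusted p = 0.00952) was left out.

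Among the kinases, PLK1 fell with EVs on the 16 arrays and was the only one of the 10 genes whose EV and control arrays did not overlap; 0.239% of all genes were lower without overlap. Its log2 levels were 7.69, 7.77 and 6.68 in the untreated arrays and 7.80, 7.46 and 6.51 in the bead arrays. In the EV arrays they were 7.40, 7.12 and 7.25 (Jurkat CD63), 6.82, 6.77 and 7.23 (Jurkat MHC1), 6.82, 6.76 and 7.02 (JinB8 CD63), and 6.95, 6.67 and 6.88 (JinB8 MHC1). The highest EV array stood just under bead replicate 2, and replicate 3 of both controls stood among or below the EV arrays. On 16 arrays the difference was -0.71 ± 0.10, or 1.63-fold (adjusted p = 0.0100), and on 18 it was -0.34 ± 0.20 (adjusted p = 0.272). The call was lost without untreated replicate 1 (-0.73, adjusted p = 0.0604), untreated replicate 2 (-0.69, adjusted p = 0.117) or bead replicate 1 (-0.62, adjusted p = 0.205).

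AURKB behaved otherwise on the 2 arrays that stood apart. Its level was 7.43, 7.48 and 7.13 in the untreated arrays and 7.38, 6.83 and 7.95 in the bead arrays, and bead replicate 3 had the highest value of all 18. The EV arrays ran from 6.23 (JinB8 CD63 replicate 3) to 7.15 (Jurkat MHC1 replicate 1), and bead replicate 2 lay within that range. The difference was -0.58 ± 0.15 on 18 arrays (adjusted p = 0.272) and -0.49 ± 0.12 on 16 (adjusted p = 0.213), the steadiest pair of values among the 4 kinases.

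AURKA and CDK1 had wide spreads among the EV arrays. AURKA, which was 6.06 and 6.29 in the untreated and 6.63 and 5.80 in the bead arrays of the 16, ran from 5.14 (JinB8 CD63 replicate 3) to 6.11 (Jurkat MHC1 replicate 3) with EVs. Its difference was -0.49 ± 0.19 on the 16 arrays (adjusted p = 0.878) and -0.14 ± 0.25 on 18 (adjusted p = 0.652). CDK1 was 4.73 and 4.88 in the untreated and 5.12 and 4.36 in the bead arrays, and its EV arrays ran from 3.65 (Jurkat MHC1 replicate 1) to 4.80 (JinB8 MHC1 replicate 3). Its difference was -0.42 ± 0.14 on the 16 arrays (adjusted p = 0.594) and -0.24 ± 0.16 on 18 (adjusted p = 0.283). For both genes the EV values overlapped the bead values. CDK1 had the lowest level of the 10 genes on the 16 arrays, where 32% of all genes had a lower mean. Its mean in the EV arrays was 4.35, against 4.81 for CD247, a T cell marker.

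Of the cyclins, CCNA2 had the tightest control values on the 16 arrays: 7.05 and 7.21 in the untreated and 7.28 and 6.86 in the bead arrays. Its 12 EV arrays ran from 6.08 to 6.89, with the highest in Jurkat CD63 replicate 1, and only that array passed bead replicate 2. The difference was -0.55 ± 0.12 (adjusted p = 0.127), and it passed the threshold without Jurkat MHC1 replicate 1 (-0.51, adjusted p = 0.0433) or replicate 3 (-0.60, adjusted p = 0.0240). On 18 arrays, with replicate 3 of the controls at 4.75 and 5.66, it was 0.08 ± 0.32 (adjusted p = 0.840).

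The B cyclins separated EV from control cells least. CCNB1 was lower by 0.38 ± 0.16 and CCNB2 by 0.41 ± 0.18 on the 16 arrays, both with an adjusted p of 1.00. On 18 arrays CCNB1 stood at 0.13 ± 0.28 (adjusted p = 0.693) and CCNB2 at -0.14 ± 0.21 (adjusted p = 0.584). The highest value of CCNB2 was 6.35 in bead replicate 1, against 5.12 in bead replicate 2 and 5.40 and 5.35 in the untreated arrays, and without that array its difference was -0.11.

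CDC20, the APC/C activator, was 6.65 and 6.50 in the untreated and 6.62 and 6.07 in the bead arrays of the 16, and 5.95 and 6.38 on the 2 arrays that stood apart. With EVs it ran from 5.50 (JinB8 CD63 replicate 1) to 6.83 (Jurkat MHC1 replicate 1), and that array had the highest CDC20 value of all 18. The difference was -0.49 ± 0.19 on the 16 arrays (adjusted p = 0.861) and -0.39 ± 0.19 on 18 (adjusted p = 0.272).

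**Figure D2:**
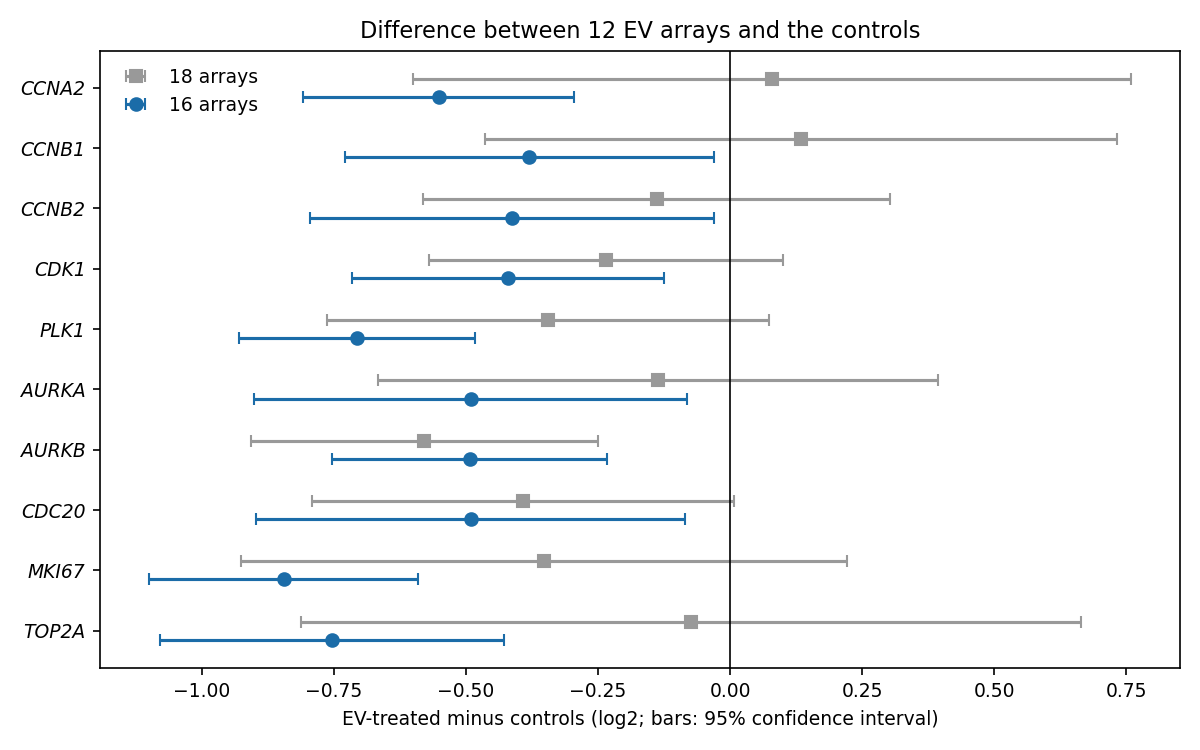
Difference between the 12 EV arrays and the control arrays for each of the 10 genes, in log2 units, from the fit on 18 arrays (squares, 6 controls) and on 16 arrays (circles, 4 controls); bars are 95% confidence intervals, not adjusted for the number of genes. All 10 circles lie to the left of 0, from -0.85 for MKI67 to -0.38 for CCNB1, and 9 of the 10 lie to the left of their square; AURKB is the exception.

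The promoters of 9 of the 10 genes were found in RefSeq's table (GRCh38.p14), and the 250 bases before the transcription start were searched on both strands. Of the CHR element, 2 forms were searched. The first was TTTGAA, which reads TTCAAA on the opposite strand, and its partner form was TTTAAA, which reads alike on both. The CCAAT box reads ATTGG on the opposite strand. The 4 windows printed are those of the 2 genes called with EVs, MKI67 and PLK1, and of the 2 B cyclins, which had the largest values of the 10 in the line by capture comparison. Each is written 5′ to 3′ on the strand of its gene, and capitals mark the matches.
MKI67: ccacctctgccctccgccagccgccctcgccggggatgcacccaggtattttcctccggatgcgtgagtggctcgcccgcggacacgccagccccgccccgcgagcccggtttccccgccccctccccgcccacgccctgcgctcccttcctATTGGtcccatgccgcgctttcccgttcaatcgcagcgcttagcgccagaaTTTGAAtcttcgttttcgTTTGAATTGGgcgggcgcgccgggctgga
PLK1: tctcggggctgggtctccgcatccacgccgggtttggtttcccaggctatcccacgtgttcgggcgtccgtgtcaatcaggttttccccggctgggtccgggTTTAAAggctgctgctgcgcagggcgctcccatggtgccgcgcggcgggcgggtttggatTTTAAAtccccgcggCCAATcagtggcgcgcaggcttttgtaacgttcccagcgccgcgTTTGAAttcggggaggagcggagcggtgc
CCNB1: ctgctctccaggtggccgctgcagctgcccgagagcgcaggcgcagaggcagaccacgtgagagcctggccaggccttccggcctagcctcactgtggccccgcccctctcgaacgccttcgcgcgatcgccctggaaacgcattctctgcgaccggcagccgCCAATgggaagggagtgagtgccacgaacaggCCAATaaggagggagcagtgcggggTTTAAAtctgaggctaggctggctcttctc
CCNB2: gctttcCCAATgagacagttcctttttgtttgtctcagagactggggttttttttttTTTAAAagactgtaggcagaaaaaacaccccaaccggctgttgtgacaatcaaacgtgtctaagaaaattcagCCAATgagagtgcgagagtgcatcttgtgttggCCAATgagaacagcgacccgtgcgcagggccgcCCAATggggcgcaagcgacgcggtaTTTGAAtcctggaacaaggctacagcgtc
They lie at chr10:128126424-128126673 (minus strand), chr16:23678639-23678888 (plus), chr5:69166900-69167149 (plus) and chr15:59104896-59105145 (plus), directly upstream of the annotated start. Each held a CHR match close to the start, 29 bases before it in MKI67, PLK1 and CCNB2 and 30 bases before it in CCNB1. In MKI67 that match shares bases with a CCAAT match on the other strand, 24 bases before the start, and its other CCAAT match lies 98 bases before it. The CCAAT match nearest to the start lay at 73 bases in PLK1, 55 in CCNB1 and 54 in CCNB2. All 9 genes held CCAAT in at least 1 of their windows, as did 37% of the 27305 genes in the table, and 7 of the 9 held either CHR form, as did 25.5% of genes. Counted over 35116 windows, since a gene can have several, the shares were 32% and 21.9%. The 7 were CCNB1, CCNB2, CDC20, CDK1, MKI67, PLK1 and TOP2A, and all 7 held CCAAT as well, a pair found in 9.29% of genes and 7.64% of windows. CCNA2 and AURKB held neither CHR form in these letters. A match is a string of letters, and no binding was measured.

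Against the IgG beads alone, 0 of the 10 genes were called with EVs in either set of arrays by limma (0.0434% of all genes in the 16 and 0.00543% in the 18). On the 16 arrays, with 2 bead arrays, all 10 were lower, with a median of -0.52 against 0.01 over all genes, and 5 had an unadjusted p under 0.05 (3.21% of all genes). MKI67 had the largest difference, -0.89 ± 0.16 (adjusted p = 0.0814), then TOP2A with -0.85 ± 0.20 (adjusted p = 0.385) and PLK1 with -0.66 ± 0.14 (adjusted p = 0.235). In these 3 the bead arrays and the 12 EV arrays did not overlap, as in 2.16% of all genes. On 18 arrays MKI67 was at -0.60 ± 0.35 (adjusted p = 0.525), PLK1 at -0.28 ± 0.25 (adjusted p = 0.529) and TOP2A at -0.03 ± 0.45 (adjusted p = 0.964), and 1 of the 10 genes, AURKB, had an unadjusted p under 0.05 (3.83% of all genes). Without bead replicate 1, the median of the 10 on 16 arrays was -0.12 in place of -0.52, and without bead replicate 2 it was -0.80. MKI67 passed the threshold among the 16 when either untreated array (-0.89, adjusted p = 0.0369 for each), Jurkat MHC1 replicate 1 (-0.85, adjusted p = 0.0129) or Jurkat MHC1 replicate 3 (-0.92, adjusted p = 0.0495) was left out.

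Each of the 4 EV groups was also set against the beads, so that 1 set of bead arrays serves in all 4 comparisons. MKI67 fell with JinB8 EVs of both captures on the 16 arrays: by 1.10 ± 0.19 with CD63-captured EVs (adjusted p = 0.0416) and by 1.15 ± 0.19, or 2.22-fold, with MHC1-captured EVs (adjusted p = 0.0185). It was the only one of the 10 called in each, where 0.0923% and 0.212% of all genes were called in either direction and 0.0652% and 0.0163% were called lower. PLK1 had -0.76 ± 0.17 (adjusted p = 0.166) and -0.80 ± 0.17 (adjusted p = 0.0794) in the same 2 comparisons, and the second passed the threshold without Jurkat MHC1 replicate 1 (-0.80, adjusted p = 0.0276) or replicate 3 (-0.80, adjusted p = 0.0332). At an unadjusted p under 0.05, 8 and 4 of the 10 were lower, against 6.7% and 5.18% of all genes in either direction. On 18 arrays 0 of the 10 were called by limma in either comparison (0.00543% and 0.0434% of all genes), AURKB alone had an unadjusted p under 0.05 in each (1.48% and 5.04% of all genes), and MKI67 had -0.81 ± 0.44 (adjusted p = 0.865) and -0.86 ± 0.44 (adjusted p = 0.462). PLK1 stood at -0.39 ± 0.32 (adjusted p = 0.865) and -0.42 ± 0.32 (adjusted p = 0.462) on the 18. The call with CD63-captured JinB8 EVs was lost when any of 12 of the 16 arrays was left out, among them bead replicate 1 (-0.98, adjusted p = 1.00) and bead replicate 2 (-1.22, adjusted p = 0.218). Some of the 12 belong to groups outside this comparison. For those the difference stayed at -1.10 (adjusted p = 0.0548 to 0.0791), and only the shared spread and the adjustment changed. The call with MHC1-captured JinB8 EVs was lost without bead replicate 1 (-1.03, adjusted p = 0.264), bead replicate 2 (-1.27, adjusted p = 0.181), JinB8 MHC1 replicate 2 (-1.08, adjusted p = 0.0957) or JinB8 MHC1 replicate 3 (-1.14, adjusted p = 0.0794).

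With Jurkat EVs, 0 of the 10 genes were called against beads in either set of arrays. For MHC1-captured Jurkat EVs no gene was called in all (0% in both sets), and 8 of the 10 had an unadjusted p under 0.05 on the 16 arrays, where 9.33% of all genes did. The lowest was TOP2A, with -1.08 ± 0.24 (adjusted p = 0.467), and CDK1 had -0.82 ± 0.22 (adjusted p = 0.467). TOP2A passed the threshold without Jurkat MHC1 replicate 3 (-1.33, adjusted p = 0.0492). When replicate 1 of that group was left out instead, 0 of the 10 were called, and their lowest adjusted p was 0.839. Of the 10, 7 then had an unadjusted p under 0.05, as did 414 of the 18417 genes. On 18 arrays TOP2A was at -0.26 ± 0.56 and CDK1 at -0.65 ± 0.26 (adjusted p = 0.983 for each), and CDK1 was the 1 gene of the 10 with an unadjusted p under 0.05 (1.19% of all genes). For CD63-captured Jurkat EVs, where 0.00543% of all genes were called in each set, the 10 genes had a median of -0.31 on the 16 arrays and 0.00 on the 18, and 2 of the 10, MKI67 and PLK1, had an unadjusted p under 0.05 on the 16 (1.55% of all genes) and none on the 18 (1.06%).

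The beads alone were compared with untreated cells to see what the carrier did. None of the 10 genes was called by limma, 0% of all genes were called, and none of the 10 had an unadjusted p under 0.05 in either set of arrays (1.02% and 1.11% of all genes on 16 and 18). Their differences ran from -0.35 to 0.37 on 16 arrays and from -0.26 to 0.50 on 18, with 5 of 10 negative in both. With 2 arrays against 2, such differences carry wide error.

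The donor line was compared within each capture. With CD63-captured EVs, all 10 genes were lower with JinB8 than with Jurkat EVs, by 0.22 to 0.62, with a median of -0.47 against -0.02 over all genes. None was called in either set of arrays by limma (0% of all genes), and 7 had an unadjusted p under 0.05 on the 16 arrays (4.02% of all genes). The 3 JinB8 arrays lay wholly below the 3 Jurkat arrays for 6 of the 10, namely CCNA2, CCNB1, CDK1, PLK1, AURKB and MKI67, as for 5.06% of all genes. CCNB1 was at 6.05, 5.86 and 6.41 with Jurkat and at 5.38, 5.74 and 5.35 with JinB8 EVs, a difference of -0.62 ± 0.23 on the 16 arrays (adjusted p = 0.874). MKI67 differed by -0.58 ± 0.17 (adjusted p = 0.874). On 18 arrays both had an adjusted p of 1.00, and none of the 10 had an unadjusted p under 0.05 (0.255% of all genes). The arrays compared and the differences are the same in both fits. Only the shared spread differs, which on 18 arrays includes the 2 control arrays that stood apart (SE of CCNB1 0.46, against 0.23). The same holds for the other comparisons between EV groups below. With the array SD as a covariate on the 16 arrays, all 10 were lower, with a median of -0.35 (all genes -0.01).

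With MHC1-captured EVs, 4 of the 10 genes were lower with JinB8 EVs and the median of the 10 was 0.18, against -0.06 over all genes. CCNB1 was at 4.90, 5.13 and 5.87 with Jurkat and at 5.87, 6.08 and 6.13 with JinB8 EVs, and CDK1 was at 3.65, 3.81 and 4.30 with Jurkat and at 4.40, 4.51 and 4.80 with JinB8 EVs. Together with CCNB2 these were the genes whose JinB8 arrays lay wholly above the Jurkat arrays, 3 of 10, as for 15.5% of all genes. The difference was 0.73 ± 0.23 for CCNB1 (adjusted p = 0.101) and 0.65 ± 0.20 for CDK1 (adjusted p = 0.0935) on the 16 arrays, and limma called 0 of the 10 genes (0.386% of all genes). The same 3 genes had an unadjusted p under 0.05, a share of the 10 near that of all genes (29.6%). With the SD of each array over its probe sets as a covariate on the 16 arrays, 7 of the 10 were negative with a median of -0.13, and CCNB1 was at 0.27 and CDK1 at 0.29. On 18 arrays, where 0.0326% of all genes and none of the 10 were called, both had an adjusted p of 0.927, and CDK1 alone had an unadjusted p under 0.05 (3.43% of all genes). In the same comparison PLK1, AURKB, CDC20 and MKI67 had negative differences, down to -0.34. Without Jurkat MHC1 replicate 3, in which CCNB1 and CDK1 were higher than in the other two arrays of its group, CCNB1 was at 1.01 (adjusted p = 0.0101) and CDK1 at 0.84 (adjusted p = 0.0122) on the remaining 15, where 3 of the 10 and 30.8% of all genes were called. Jurkat MHC1 replicate 1, whose SD over probe sets (2.01) was the lowest of the 16 arrays, is part of this comparison, and without it CCNB1 was at 0.53.

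**Figure D3:**
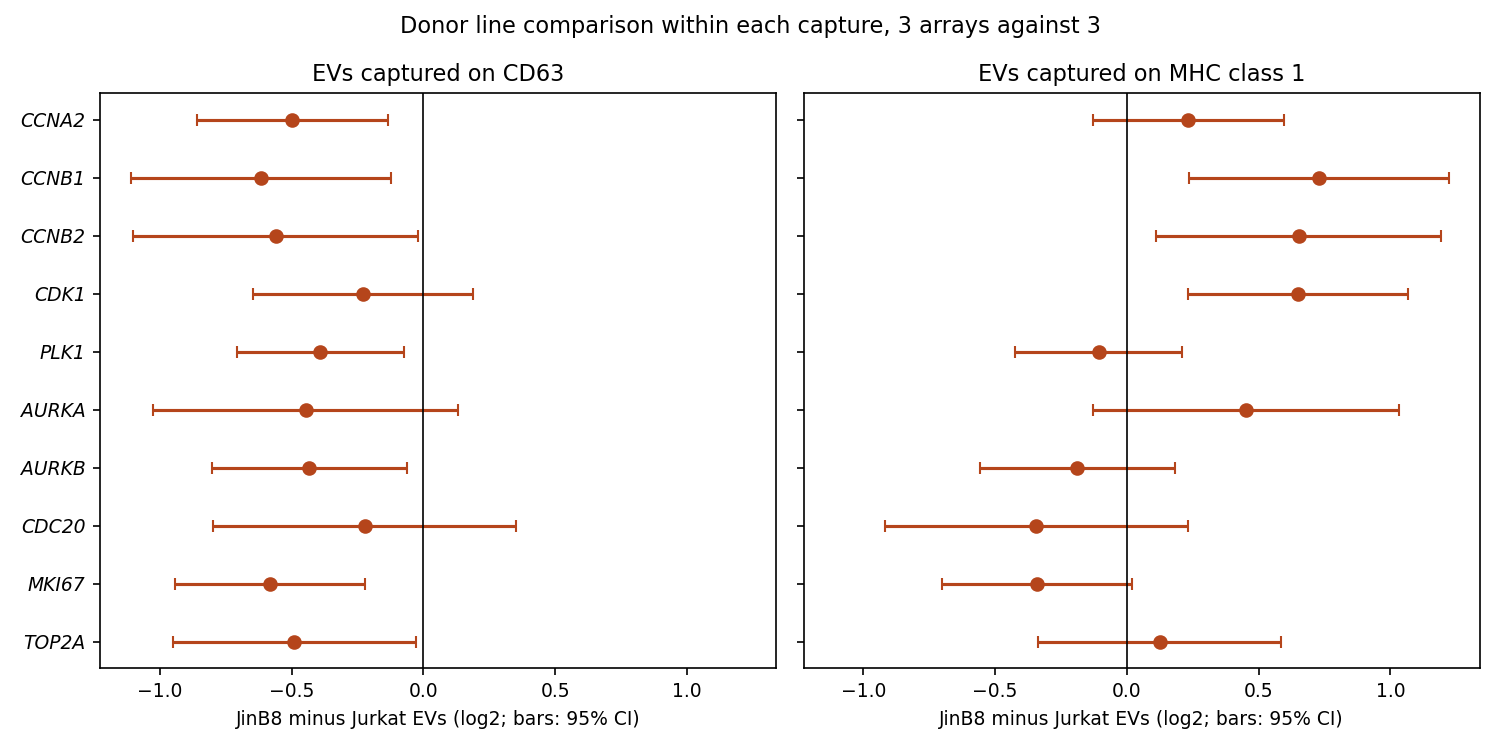
Difference between JinB8 and Jurkat EVs for each of the 10 genes, in log2 units, within CD63 capture (left) and within MHC1 capture (right), 3 arrays against 3; points are estimates and bars are unadjusted 95% confidence intervals of the fit on 16 arrays. All 10 points of the CD63 panel lie to the left of 0, and in the MHC1 panel CCNB1, CCNB2, CDK1 and AURKA lie at 0.45 or higher while CDC20 and MKI67 lie at -0.34.

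The test of the difference between these differences, the interaction of line and capture, called 0 of the 10 in either set of arrays (0.0163% of all genes on 16 and 0% on 18). CCNB1 had the largest value, -1.35 ± 0.33 on 16 arrays (adjusted p = 0.138), then CCNB2 with -1.21 ± 0.36 and CDK1 with -0.88 ± 0.28 (adjusted p = 0.138 for both). On 18 arrays the adjusted p was 0.923 for all 3, and 2 of the 10 had an unadjusted p under 0.05 (2.44% of all genes). On the 16 arrays 5 of the 10 had one, where 28.7% of all genes did. Leaving out Jurkat MHC1 replicate 3 from the 16 gave 6 calls among the 10, where 25.4% of all genes were called, with CCNB1 at -1.63 (adjusted p = 0.0220), CCNB2 at -1.33 (adjusted p = 0.0293) and CDK1 at -1.07 (adjusted p = 0.0228). Leaving out JinB8 CD63 replicate 2 gave 2 calls, where 9.7% of all genes were called, CCNB1 at -1.47 (adjusted p = 0.0385) and CCNB2 at -1.42 (adjusted p = 0.0405). When Jurkat MHC1 replicate 1 was left out, 0 of the 10 were called, where 15 genes were called in all. The median of the 10 was then -0.49, and CCNB1 was at -1.15 (adjusted p = 0.211). With the array SD as a covariate on the 16 arrays, the median of the 10 was -0.20 in place of -0.67, and CCNB1 was at -0.63 (adjusted p = 1.00).

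The capture was also compared within each donor line. With Jurkat EVs, 9 of the 10 genes were higher after CD63 than after MHC1 capture, with a median of 0.41 (all genes -0.02); CCNB1 was higher by 0.81 ± 0.23 and CDK1 by 0.66 ± 0.20 on the 16 arrays (adjusted p = 0.415 for both). None of the 10 was called by limma in either set (0.00543% of all genes on 16 and 0% on 18), and 5 had an unadjusted p under 0.05 on 16 arrays (11% of all genes) and 1, CDK1, on 18 (0.44%). On 18 arrays both had an adjusted p of 1.00. The arrays did not overlap for 2 of the 10, CCNB2 and CDK1, as for 5.92% of all genes. Without Jurkat MHC1 replicate 1, the median of the 10 for Jurkat EVs was 0.25 (all genes 0.02). With the array SD as a covariate on the 16 arrays it was 0.24 (all genes 0.01). CCNB2 was at 5.48, 5.21 and 5.57 after CD63 and at 4.78, 4.63 and 5.05 after MHC1 capture of Jurkat EVs, and at 4.67, 5.28 and 4.63 and at 5.40, 5.32 and 5.69 for the same captures of JinB8 EVs. With JinB8 EVs the difference was -0.54 ± 0.23 for CCNB1 (adjusted p = 0.282) and -0.61 ± 0.25 for CCNB2 (adjusted p = 0.274) on the 16 arrays, and limma called none of the 10 (0.185% of all genes on 16 and 0.00543% on 18). These 2 had an unadjusted p under 0.05 on 16 arrays, a share of the 10 near that of all genes (16.6%), and none of the 10 had one on 18 (1.7%). CCNA2, CCNB1 and CCNB2 did not overlap there, 3 of 10 as against 12.8% of all genes, and on 18 arrays both B cyclins had an adjusted p of 1.00. The median of the 10 was -0.18 (all genes 0.03). With the array SD as a covariate on the 16 arrays it was 0.07, 4 of the 10 were negative, and CCNB1 was at -0.07 and CCNB2 at -0.28.

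Across the 6 groups, the F test for any difference called MKI67 on the 16 arrays (adjusted p = 0.0267), where 0.233% of all genes were called, and none of the 10 on the 18 (0.0109% of all genes). At an unadjusted p under 0.05 the test held 8 of the 10 on 16 arrays (8.07% of all genes) and AURKB alone on 18 (1.09%). PLK1 followed with an adjusted p of 0.0549, and the other 8 had 0.213 to 0.604. The means of the 16 arrays put the untreated and bead groups in the top 2 places for 8 genes, all but CCNB1 and CCNB2. For MKI67 the order ran from beads (7.83 ± 0.16, SD, n = 2) and untreated (7.74 ± 0.42, n = 2) through Jurkat CD63 (7.32 ± 0.14, n = 3) and Jurkat MHC1 (7.03 ± 0.28, n = 3) to JinB8 CD63 (6.73 ± 0.11, n = 3) and JinB8 MHC1 (6.69 ± 0.14, n = 3). The neighbouring pairs beads and untreated, and JinB8 CD63 and JinB8 MHC1, differed by less than their SDs. For PLK1 the order was untreated (7.73 ± 0.06), beads (7.63 ± 0.25), Jurkat CD63 (7.26 ± 0.14), Jurkat MHC1 (6.94 ± 0.25), JinB8 CD63 (6.87 ± 0.14) and JinB8 MHC1 (6.83 ± 0.14), and the last 3 differed by less than their SDs. Among the EV groups, Jurkat CD63 was highest for 7 of the 10 genes. The lowest group was Jurkat MHC1 for CCNB1, CCNB2, CDK1 and TOP2A, JinB8 CD63 for CCNA2, AURKA, AURKB and CDC20, and JinB8 MHC1 for PLK1 and MKI67. With 18 arrays the controls held the top 2 places for 3 genes, PLK1, AURKB and CDC20.

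The 10 genes varied together from array to array. Over the 16 arrays all 45 pairs had a positive Pearson's r, from 0.14 to 0.90 with a median of 0.69. CCNA2 followed the mean of the other 9 most closely (r = 0.94) and CDC20 least (r = 0.45). These are descriptions over arrays that share group, hybridisation and normalisation. The genes outside the set most like its mean, over the same 16 arrays, were KIF20A (r = 0.95), NUF2 (0.93), BUB1 (0.93), DLGAP5 (0.92), KIF18A (0.91), ASPM (0.91), TPX2 (0.91) and KNL1 (0.90), where the median gene of 18407 had an r of -0.07 and 95% of genes lay below 0.61. KIF20A and KIF18A are mitotic kinesins, NUF2, BUB1 and KNL1 belong to the kinetochore and its checkpoint, and DLGAP5, ASPM and TPX2 are spindle proteins.

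Other genes of the division machinery were read from lists chosen by function. For EVs against controls, 49.1% of all genes were negative on the 16 arrays and 56.6% on the 18. The median difference of all genes was 0.00 and -0.09, and 0.125% and 0.00543% of them were called. The transcription factors held 1 call on the 16 arrays: FOXM1, the activator of G2 and M genes, had a mean log2 level of 7.46 in the 4 controls (7.29 to 7.60) and 6.75 in the 12 EV arrays (6.33 to 7.21), and fell by 0.71 ± 0.11 (adjusted p = 0.0119). On 18 arrays its difference was -0.11 ± 0.29 (adjusted p = 0.762), and among the 16 its call was lost without untreated replicate 2 (-0.65, adjusted p = 0.156) or bead replicate 1 (-0.64, adjusted p = 0.228). MYBL2, which encodes B-MYB, was at -0.49 ± 0.10 on 16 arrays (adjusted p = 0.0782) and -0.34 ± 0.12 on 18 (adjusted p = 0.272). Of the 19 factors measured, 14 were negative on the 16 arrays, with a list median of -0.13, and 8 on the 18.

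The activators and partners of the mitotic kinases, 15 of 15 measured, were all negative on the 16 arrays and none was called, with a list median of -0.19. TPX2, which activates Aurora A on the spindle, had -0.55 ± 0.16 (adjusted p = 0.390) and HMMR, a spindle-pole protein, -0.53 ± 0.12 (adjusted p = 0.134). On 18 arrays 11 of the 15 were negative, HMMR was at -0.32 and TPX2 at 0.37. Of 18 genes of the APC/C and its regulators and targets, 12 were negative on 16 arrays and 7 on 18, and none was called. PTTG1, the securin that the APC/C destroys at anaphase, had -0.72 ± 0.17 (adjusted p = 0.186) on the 16, and FBXO5, the APC/C inhibitor EMI1, had -0.33 ± 0.11 (adjusted p = 0.643). On 18 arrays PTTG1 was at -0.34 and FBXO5 at -0.14.

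The brakes on cyclin-dependent kinases lay on both sides of 0: of 12 measured of 13 listed, 5 were positive and 7 negative on the 16 arrays, none was called, and the list median was -0.02. CDKN1A, the p21 inhibitor, had 0.21 ± 0.10 there (adjusted p = 1.00) and 0.83 on 18 arrays (adjusted p = 0.272). Among 14 cyclins, kinases and factors of G1 and S phase, 10 were negative on 16 arrays and 2 on 18, and none was called; RRM2, a ribonucleotide reductase subunit, had -0.53 ± 0.15 (adjusted p = 0.310) and CCND1, cyclin D1, 0.20 ± 0.08 (adjusted p = 0.913) on the 16, against -0.30 and 0.95 on the 18 (adjusted p = 0.272 for both). Of 8 paralogs measured of 10 listed, 5 were negative on the 16 arrays, and TOP1 was at -0.36 ± 0.11 (adjusted p = 0.432), against 1.15 on 18 arrays (adjusted p = 0.272).

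The cell type markers were set beside these results. On the 16 arrays the mean of the 14 endothelial markers was 9.54 to 9.68 in the 4 control arrays and 9.44 to 9.65 in the EV arrays, and 11 of the 14 were lower with EVs, with a list median of -0.09 and none called. The mean of the 11 T cell markers measured (of 12) was 3.80 to 3.95 in the controls and 3.74 to 4.23 with EVs, and the highest mean of a single T cell marker was that of CD247, 4.81 with EVs and 4.87 in the controls. PTPRC, the pan-leukocyte marker CD45, was the lowest of them, at 3.12 with EVs and 3.01 in the controls. The T cell mean of 4.23 was that of Jurkat MHC1 replicate 1, and the next highest EV array stood at 4.03. That replicate also had the highest fibroblast and smooth muscle (4.94), monocyte (4.77) and epithelial (5.44) means of the 16 arrays. Of 10 fibroblast and smooth muscle, 9 monocyte and 8 epithelial markers none was called on either set, and on the 16 arrays 7, 7 and 4 of them were higher with EVs. On 18 arrays the endothelial list had a median difference of 1.11 and the T cell list one of -0.30, and the 2 control arrays that stood apart in these lists were those with the lowest mean of the mitotic genes. Without these 2 arrays, the median difference of the 10 mitotic genes between EV and control cells was -0.49 in place of -0.19. Why the 2 arrays stood apart was not tested.

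**Figure D4:**
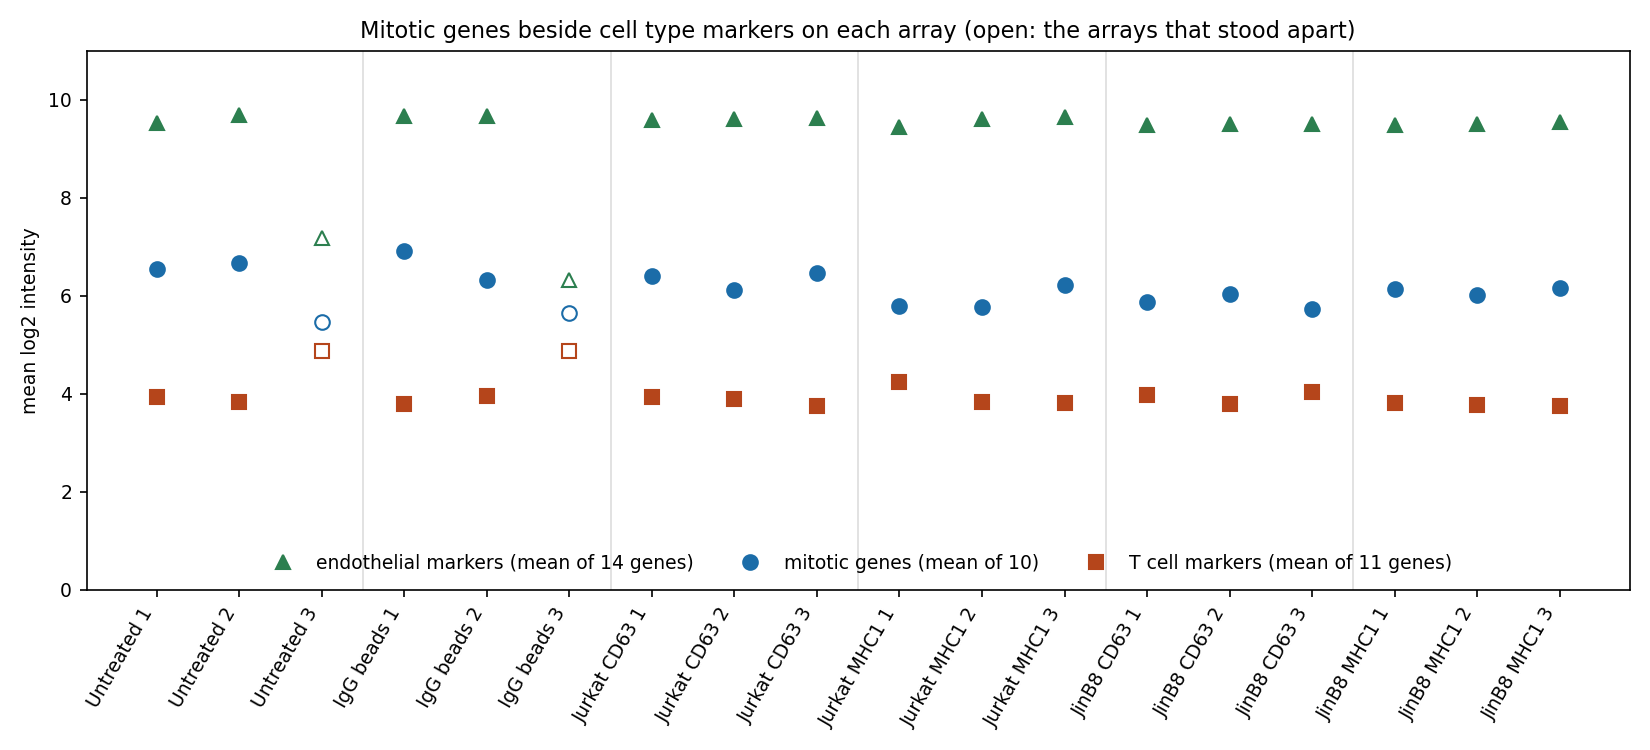
Mean log2 intensity, on each of the 18 arrays, of the 10 mitotic genes (circles), 14 endothelial markers (triangles) and 11 T cell markers (squares); open symbols are replicate 3 of the untreated and bead groups. On these 2 arrays the 3 means lie close together (7.18, 5.47 and 4.87, and 6.31, 5.66 and 4.87), while on the other 16 the endothelial mean is 9.44 or more and the T cell mean 4.23 or less.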

How the data were processed

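RNA of 18 HUVEC samples was hybridised to Affymetrix whole-transcript arrays. The deposited values were taken as log2 intensities, since they run from 2.13 to 14.13, and the authors computed them with RMA in Affymetrix Expression Console, per the submitters' processing notes (its version: not given in the sources used here). The scale is not stated beyond that. The labels and the design text name different RNA extraction kits. Of 33297 probe sets, 19460 carried 1 gene symbol in the platform annotation, 1754 several and 12083 none, which gave 18417 genes, each by its probe set of the highest mean.

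limma 3.58.1 in R 4.3.3 fitted 1 mean per group, on all 18 arrays and on the 16 without replicate 3 of both controls. Adjusted p-values (Benjamini-Hochberg over the 18417 genes) come from its two-sided moderated test, and under 0.05 is called. The script was tested on simulated data. There were 12 comparisons and an F test over all groups. The number of arrays limits the precision.

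All 10 genes are named. Of each of 6 pathway lists, up to 3 genes of the smallest p on 16 arrays are named, and outside the lists the 8 genes most correlated with the mean of the 10. The members and lists were chosen with earlier results of these data known.

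Alternatives were 16 or 15 arrays, array weights, the array SD as a covariate, repeated normalisation, centring, the mean of probe sets, a filter on the lowest 25% of genes, trended robust moderation, another control, only the groups compared, and leaving out each array.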

Additional observations from a re-analysis of the deposited data

How the results depend on the processing

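Changes are given against the fit on 18 arrays. The array SD as a covariate was fitted on 16 arrays, so it changes both choices, and was planned with them; repeated normalisation, centring, only the groups compared and untreated cells as the control were combined with 16 arrays after seeing the data, and are meant so in this paragraph. Genes of the 10 called with EVs against controls numbered 2 on 16 arrays, 4 on 15 (also without Jurkat MHC1 replicate 1), 5 with 16 arrays and the covariate, 6 with array weights, and 3, 2 and 2 with repeated quantile normalisation, median centring or only the groups compared on 16, where at most 1.28% of all genes were called (weights). Against beads they numbered 1 on 15 arrays, 2 with the covariate on 16, 3 with weights, and 1 each with repeated normalisation or only the groups compared on 16 (at most 0.478% of all genes). JinB8 CD63 EVs against beads gave 1 call on 16 and 15 arrays, with weights, and on 16 arrays with the covariate or repeated normalisation (at most 0.434%). JinB8 MHC1 EVs against beads gave 1 call on 16 arrays, 2 on 15, 3 with weights (6.54% of all genes), and on 16 arrays 4 with the covariate, 1 with repeated normalisation, 1 with centring and 3 with only the groups compared (at most 1.59%). The F test gave 1 on 16 arrays, 2 on 15, 10 with weights, where 28.1% of all genes were called, and on 16 arrays 4 with the covariate, 1 with repeated normalisation and 1 with centring (at most 1.69%). Weights also gave 4 calls for Jurkat MHC1 EVs against beads (0.434% of all genes), 5 between lines within MHC1 (33.4%), 3 between captures of Jurkat EVs (0.852%), 2 between captures of JinB8 EVs (19.2%) and 5 for the interaction (27.9%).

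The median of the 10 moved to -0.59 for EVs against untreated cells alone on 16 arrays. For Jurkat MHC1 EVs against beads it was -0.76 on 16 arrays and with only the groups compared on 16, and -0.78 with centring on 16. For JinB8 CD63 EVs against beads it was -0.75 on 16 and 15 arrays, and on 16 with centring or only the groups compared. The interaction median was -0.20 with the covariate on 16 arrays. CCNA2 against controls was -0.55, -0.51, -0.47 and -0.46 on 16 arrays, 15, 16 with the covariate and 18 with weights, and -0.58, -0.54, -0.55 and -0.55 on 16 arrays with untreated cells as the control, repeated normalisation, centring and only the groups compared. CCNB1 in the same order was -0.38, -0.33, -0.28, -0.37, -0.31, -0.41, -0.38 and -0.38 against controls. Against beads CCNB1 was -0.45, -0.40, -0.31, -0.35, -0.46, -0.46 and -0.45, without the setting with untreated cells as the control, which holds no bead array. On 18 arrays repeated normalisation gave CCNB2 0.028 and TOP2A 0.0088 against controls, and CDK1 0.0079, AURKA 0.16 and TOP2A 0.15 against beads. Untreated cells as the only control on 18 arrays, which makes a single comparison, gave CCNB2 0.019 and CCNA2 0.21. The cause was not tested.

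Leaving out each array in turn, from 18 or from 16, gave 0 to 4 calls and a median of -0.68 to -0.0039 for EVs against controls, and 0 to 1 and -0.80 to 0.11 against beads. Where any of the 10 were called, at most 0.337% and 0.152% of all genes were called. Against beads the single groups gave medians of -0.57 to 0.36 (Jurkat CD63), -1.03 to -0.033 with 0 to 1 calls (Jurkat MHC1), -0.98 to -0.030 with 0 to 1 (JinB8 CD63) and -0.73 to 0.33 with 0 to 2 (JinB8 MHC1), and beads against untreated gave -0.33 to 0.43. The shares of all genes beside these calls were at most 0.0326% (Jurkat MHC1), 0.293% (JinB8 CD63) and 0.63% (JinB8 MHC1). The lines gave -0.56 to -0.40 within CD63 and 0.02 to 0.40 with 0 to 3 calls within MHC1, the captures 0.25 to 0.66 for Jurkat and -0.26 to -0.11 for JinB8, the interaction -0.90 to -0.49 with 0 to 6 calls, and the F test 0 to 3 calls. The 3 calls between lines within MHC1 came where 30.8% of all genes were called, a share near that of the 10. The 6 calls of the interaction came where 25.4% of all genes were called, and those of the F test where at most 0.662% were. Against controls the ranges were CCNA2 -0.65 to 0.30, CCNB1 -0.53 to 0.35, CCNB2 -0.72 to 0.089, CDK1 -0.61 to -0.10, PLK1 -0.79 to -0.21, AURKA -0.70 to 0.093, AURKB -0.72 to -0.36, CDC20 -0.63 to -0.32, MKI67 -0.99 to -0.10, TOP2A -0.87 to 0.19 and FOXM1 -0.77 to 0.074. Against beads they were CCNA2 -0.73 to 0.29, CCNB1 -0.76 to 0.56, CCNB2 -1.21 to 0.16, CDK1 -0.77 to 0.061, PLK1 -0.83 to -0.01, AURKA -0.93 to 0.45, AURKB -0.88 to -0.04, CDC20 -0.65 to -0.10, MKI67 -1.01 to -0.40 and TOP2A -1.09 to 0.50, and for Jurkat MHC1 EVs CDK1 -1.20 to -0.37 and TOP2A -1.33 to 0.27.

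No paired analysis was possible because the labels give no replicate numbers, and the numbers used here follow the order of the samples. A comparison with 2 control arrays rests on few arrays, and the signal over background of single probe sets was not among the values used.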
